A study of Mus musculus with 6 samples.

Results

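Complex I is the entry point of the mitochondrial respiratory chain, and its nuclear subunits were followed here as a set of 35 genes whose symbols begin with Nduf. The genes were taken from a list of names and not by their measured values, but the list was chosen with earlier results of these data known. All 35 are among the 19060 genes of the deposited count table, and all 35 passed the filter on low counts that left 15826 genes for testing. They fall into 6 core subunits and 29 accessory subunits.

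RNA from the proximal incisor of the mouse, the end of the continuously growing tooth that holds its stem cells, was sequenced in bulk. The 3 control mice were Fgfr1fl/fl, in which loxP sites flank part of Fgfr1 on both alleles, and the 3 mutant mice were Gli1CreER;Fgfr1fl/fl, which carry the same floxed alleles and a tamoxifen-inducible Cre driven by Gli1. The labels give the controls as wild type and the driver as Gli1-Cre. Age in the labels is 1 month for all 6 mice, and tissue was collected 1 week after tamoxifen. Cre acts only in cells that express Gli1, whereas the RNA came from every cell type of the dissected tissue, so fewer cells of a type and less RNA per cell cannot be told apart. The question put to the data was whether core and accessory subunits changed alike in the mutant incisor.

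Complex I passes electrons from NADH to ubiquinone and uses the energy to pump protons across the inner mitochondrial membrane. The core subunits, shared with bacteria, hold the flavin, the iron-sulfur clusters and the quinone site, and the core subunits of the membrane part are encoded by mitochondrial DNA. The accessory subunits surround the core, are needed for its assembly or stability in many cases, and are mostly small proteins from short messenger RNAs. The complex is assembled from modules: the N module oxidises NADH, the Q module reduces ubiquinone, and the proximal and distal parts of the membrane arm pump protons.

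Stretches of 4 promoters are shown because they hold the motif whose share among the members stood furthest above that among all genes. It was the YY1 motif, found in 4 of the 32 members with a promoter in the RefSeq table (12.5%) and in 0.995% of the promoters of 27025 genes, both strands searched from 250 bases before to 50 bases after the start. The 30 bases around each match are given in the direction of the gene, with the motif in capitals, on GRCm38.p6.
Ndufa9 (chr6:126849101-126849130, minus strand): gaggcattgtgggagAAGATGGCGGccgcc
Ndufs4 (chr13:114388045-114388074, minus strand): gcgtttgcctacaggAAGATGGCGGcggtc
Ndufs6 (chr13:73328435-73328464, minus strand): tcaagggtcaccggcAAGATGGCGGcggtg
Ndufs7 (chr10:80249458-80249487, plus strand): ctgaaggccgaggccAAGATGGCGGcgctg

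The match began 29, 35, 33 and 24 bases after the RefSeq start of Ndufa9, Ndufs4, Ndufs6 and Ndufs7, in that order. Gene positions given further below come from GENCODE, where a gene can start elsewhere. Ndufs4 and Ndufs6 are accessory subunits that rose in the mutant, whereas the accessory Ndufa9 and the core Ndufs7 did not pass the test. The SP1 sequence GGGGCGGGG was in the promoters of 5 members (Ndufa3, Ndufa6, Ndufa8, Ndufa10 and Ndufa13), 15.6% against 12.9% of all genes. The NRF1 motif was found in Ndufa11 alone (3.13% against 1.07%) and the ETS sequence CCGGAAGT in Ndufs3 alone (3.13% against 4.31%). The ERR sequence TCAAGGTCA was in the promoter of 0 of the 32 members and in 0.466% of all promoters. A match describes letters in these windows and not binding.

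The control libraries held 31060222 to 32712448 counts and the mutant libraries 5276557 to 11819576, so every mutant library was shallower. The upper limit behind a count of 0, set at 3 counts, was at most 0.0874 CPM in a control library and 0.655 CPM in a mutant library, for counting error only. The raw counts of the members lay from 226 to 8542 in control and from 224 to 6299 in mutant samples. Values are given as library-scaled counts (CPM) after upper-quartile scaling. Fgfr1, the targeted gene, had 529, 924 and 434 CPM in control and 148, 318 and 262 CPM in mutant samples (log2 fold change -1.37, standard error 0.40, edgeR adjusted p = 0.0881), with no overlap between the groups. Gli1 had 22.6, 23.8 and 33.4 CPM in control and 10.9, 24.6 and 22.8 CPM in mutant samples.

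Control sample 2 stood apart. It was the lowest of all 6 samples for 31 of the 35 members and the lowest control for 34. The summed CPM of 12 skeletal muscle markers was 11.1, 3412 and 34.7 in control and 7828, 180 and 1234 in mutant samples. The sum of 9 odontoblast and dental mesenchyme markers was 69194 in control sample 2, against 25946 and 31756 in the other controls and 23717 to 29606 in mutant samples. Tooth markers were abundant in all 6 samples, and the sum of 9 ameloblast and dental epithelium markers was 85229 to 120677 in control and 31497 to 69523 in mutant samples. The 5 macrophage markers summed to 92.4 to 299 CPM in control and 199 to 256 CPM in mutant samples, and the 4 endothelial markers to 131 to 220 and 111 to 115 CPM. The 5 erythroid markers that passed the filter on low counts summed to 823, 822 and 380 CPM in control and 1289, 926 and 2559 CPM in mutant samples, so this sum was higher in every mutant sample, as most members were, although Hba-a1 was called lower and Hbb-bs, above the controls in every mutant sample, was not called. The part of tissue composition in the results on the members was not tested.

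Accessory subunits of complex I were higher in the mutant incisor, whereas the core subunits were not called. Of the 35 members, 16 rose at an adjusted p under 0.05 (two-sided quasi-likelihood test of edgeR, adjusted by Benjamini-Hochberg over the 15826 genes), against a background of 3.72% of all genes. All 16 were accessory subunits. None of the members fell by this test, nor at an unadjusted p under 0.05, against 3.06% and 9.13% of all genes, and DESeq2 and limma-voom also called 0 lower. At an unadjusted p under 0.05 and over 1.5-fold, 26 members were higher (10.9% of all genes), 24 of them accessory, and 0 were lower (8.92% of all genes). Among protein-coding genes with the shortest transcripts (204 to 1808 bases), where 30 members lie, 6.55% rose at an adjusted p under 0.05. With protein-coding genes only, 1 member rose (0.369% of all genes). With an offset for transcript length and GC content 0 rose (0.689% of all genes). Leaving out single samples left 0 to 6 members called, where 0.474 to 2.73% of all genes rose. The median log2 fold change over the members was then 0.95 to 1.43. Without control sample 2, 6 members rose (1.19% of all genes) and the medians were 0.02 over core and 1.09 over accessory members.

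The median log2 fold change was 1.33 over the 29 accessory subunits, 0.15 over the 6 core subunits and -0.04 over all genes tested. Among the 35 members, 31 had a log2 fold change above 0 (48.2% of all genes). In 27 members all 3 mutant samples lay above all 3 controls (14.1% of all genes), and in 1, Ndufa10, all lay below (16.3% of all genes). The 27 comprised 25 accessory and 2 core subunits. The range ran from -0.43 for Ndufa10 to 2.70 for Ndufb4.

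**Figure D1:**
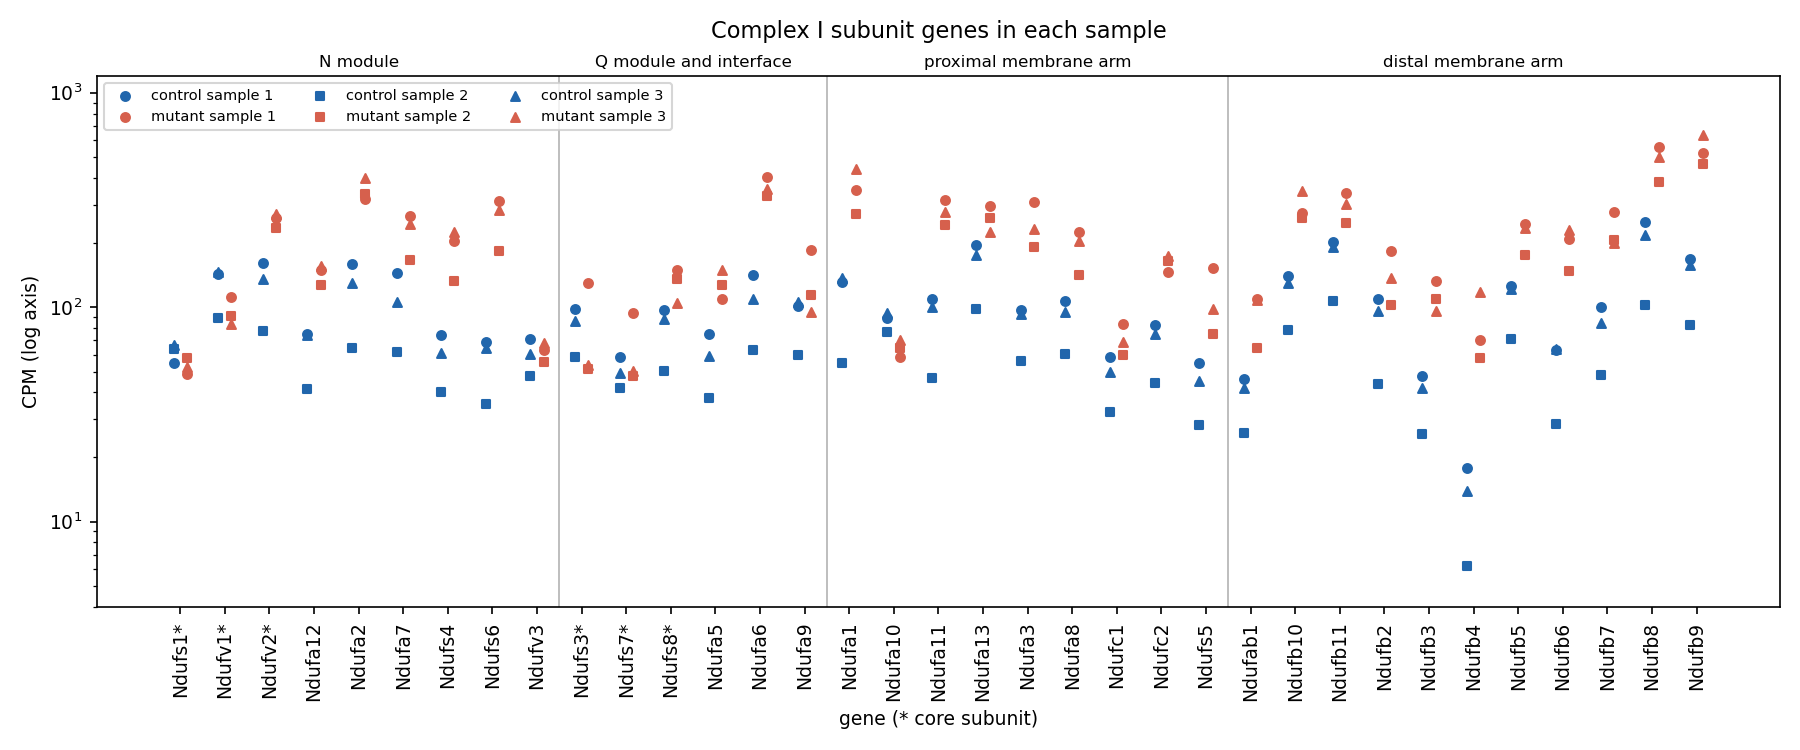
CPM of each of the 35 members (log axis) in the 3 control samples (blue) and the 3 mutant samples (red), grouped by module, with core subunits marked by an asterisk. Mutant points lie above control points for most accessory subunits, and control sample 2 (blue squares) is the lowest of the 6 samples for 31 members.

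The core subunits of the N module take electrons from NADH. Ndufv1, which binds the flavin and NADH (chr19:4007384-4012806 on GRCm38), had 142, 88.6 and 146 CPM in control and 112, 90.6 and 83.8 CPM in mutant samples. The log2 fold change of -0.40 (standard error 0.27, edgeR adjusted p = 0.481) did not pass the test, and the groups overlapped.

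Ndufs1, the iron-sulfur subunit that carries electrons onward from the flavin site (chr1:63143596-63176833), had 55.0, 63.5 and 66.8 CPM in control and 48.9, 57.9 and 52.7 CPM in mutant samples. The log2 fold change was -0.22 (standard error 0.22, edgeR adjusted p = 0.668), again with overlapping groups. Ndufv2, an iron-sulfur partner of Ndufv1 (chr17:66078638-66101559), had 161, 77.5 and 135 CPM in control and 262, 234 and 271 CPM in mutant samples. Its log2 fold change of 1.04 (standard error 0.30, edgeR adjusted p = 0.0891) was the highest of the core subunits and missed the threshold, although every mutant sample exceeded every control sample.

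The core subunits of the Q module lead electrons to ubiquinone. Ndufs3, which packs against the quinone-site subunits (chr2:90894634-90904827), had 97.9, 58.2 and 86.0 CPM in control and 130, 51.5 and 53.6 CPM in mutant samples, with a log2 fold change of -0.05 (standard error 0.40, edgeR adjusted p = 0.969). Mutant sample 1 was the highest of all 6 and the other two mutants were the lowest, so the groups overlapped.

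Ndufs7, which holds the last iron-sulfur cluster before ubiquinone (chr10:80249121-80256794), had 58.8, 41.9 and 49.5 CPM in control and 93.8, 47.6 and 50.3 CPM in mutant samples. A log2 fold change of 0.35 was fitted (standard error 0.32, edgeR adjusted p = 0.632), and mutant sample 1 alone lay above the controls. Ndufs8, an iron-sulfur subunit beside Ndufs7 (chr19:3908863-3912774), had 97.2, 50.3 and 88.3 CPM in control and 149, 135 and 104 CPM in mutant samples. The fitted log2 fold change was 0.72 (standard error 0.30, edgeR adjusted p = 0.227), with no overlap between the groups.

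Accessory subunits of the N module were higher than its core subunits in their change, with a median log2 fold change of 1.38 over 6 accessory and -0.22 over 3 core members. Ndufs6, a zinc-binding accessory subunit (chr13:73319838-73328542), had 68.4, 35.3 and 64.2 CPM in control and 313, 182 and 283 CPM in mutant samples. It rose by a log2 fold change of 2.21 (standard error 0.34, edgeR adjusted p = 0.0190). The lowest mutant sample stood far above the highest control sample.

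Ndufs4, a subunit whose loss causes Leigh-like disease in mice, rose by 1.67 on the log2 scale (edgeR adjusted p = 0.0386), from 74.3, 40.2 and 61.4 CPM to 203, 133 and 224 CPM. Ndufa2 and Ndufa12, the latter the subunit that takes the place of the assembly factor Ndufaf2, also rose, by 1.58 and 1.18 on the log2 scale. Ndufa7 had a log2 fold change of 1.12 and missed the threshold (edgeR adjusted p = 0.111). Ndufv3 (chr17:31520115-31531331) was the accessory subunit of this module with the weakest signal, at 70.9, 47.7 and 60.7 CPM in control and 63.1, 55.6 and 68.0 CPM in mutant samples, with a log2 fold change of 0.06 (standard error 0.24, edgeR adjusted p = 0.933). Its groups overlapped.

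Among the accessory subunits at the Q module, Ndufa6 rose. Ndufa6 belongs to the LYR family that binds mitochondrial acyl carrier protein (chr15:82350140-82354322), and had 141, 63.3 and 109 CPM in control and 406, 330 and 354 CPM in mutant samples. The rise was 1.80 on the log2 scale (standard error 0.33, edgeR adjusted p = 0.0347), with a wide gap between the groups. Ndufa5 had a log2 fold change of 1.17 and missed the threshold (edgeR adjusted p = 0.0545). Ndufa9, which binds NADPH (chr6:126821721-126849136), had 101, 59.5 and 105 CPM in control and 185, 114 and 94.6 CPM in mutant samples, with a log2 fold change of 0.56 (standard error 0.34, edgeR adjusted p = 0.409). Mutant sample 3 lay among the controls.

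In the proximal membrane arm, which holds 9 accessory members, 4 rose (3.72% of all genes) and the median log2 fold change was 1.27. Ndufa3 (chr7:3617373-3620327) had 97.0, 55.8 and 93.3 CPM in control and 311, 191 and 231 CPM in mutant samples. It rose by 1.57 on the log2 scale (standard error 0.31, edgeR adjusted p = 0.0423), with no overlap. Ndufa1, Ndufa11 and Ndufc2 rose by 1.72, 1.70 and 1.27.

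Ndufa8 and Ndufs5, both cysteine-rich proteins on the intermembrane space side, had log2 fold changes of 1.11 and 1.33 and were not called, and neither were Ndufa13 at 0.74 and Ndufc1 at 0.59. Ndufa10, a subunit related to nucleoside kinases (chr1:92439010-92473860), went the other way, with 89.3, 76.7 and 94.1 CPM in control and 58.5, 64.8 and 70.3 CPM in mutant samples. The fitted log2 fold change was -0.43 (standard error 0.21, edgeR adjusted p = 0.316), and every mutant sample lay below every control sample.

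The distal membrane arm had the most calls, with 7 of its 11 members (3.72% of all genes) and a median log2 fold change of 1.35. Ndufb9, another LYR protein (chr15:58933756-58939488), had 168, 82.6 and 157 CPM in control and 525, 467 and 635 CPM in mutant samples. It rose by 2.00 on the log2 scale (standard error 0.33, edgeR adjusted p = 0.0271), with a wide gap between the groups. Ndufb3, Ndufb6, Ndufb7 and Ndufb10 rose by 1.55, 1.91, 1.55 and 1.34, and Ndufab1, the mitochondrial acyl carrier protein, by 1.30 at an adjusted p of 0.0499 by edgeR.

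Ndufb5, Ndufb8 and Ndufb11 had log2 fold changes of 1.03, 1.35 and 0.83 and were not called. Ndufb2 (chr6:39592574-39603382) had 109, 43.9 and 95.9 CPM in control and 184, 102 and 137 CPM in mutant samples, with a log2 fold change of 0.76 (standard error 0.38, edgeR adjusted p = 0.313). Mutant sample 2 lay among the controls.

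The largest log2 fold change, 2.70 for Ndufb4 (standard error 0.46, edgeR adjusted p = 0.0294), rests on reads that can be split with a copy. Ndufb4 (chr16:37647170-37654453) had 17.8, 6.21 and 13.8 CPM in control and 70.1, 58.2 and 117 CPM in mutant samples. The processed pseudogene Ndufb4c, identical to it over 390 aligned bases, held 795, 839 and 826% of the counts of Ndufb4 in control and 484, 494 and 314% in mutant samples. With the counts of such copies added to their parents, a choice made after seeing the data, Ndufb4 rose by 1.84 on the log2 scale (edgeR adjusted p = 0.0465).

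In that fit, Ndufa12 and Ndufab1 were no longer called, at log2 fold changes of 1.03 and 1.05 (edgeR adjusted p = 0.0529 and 0.0964). It called 14 members higher, against 3.69% of all genes. The copy of Ndufs3, Gm12251, held 0.591, 0.777 and 0.659% of the counts of Ndufs3 in control and 3.46, 8.72 and 26.2% in mutant samples. Of the members, 18 overlap a second gene in the annotation, among them Ndufa13 with Tssk6 and Ndufb6 with Smim27, and whether counting used strand is not given in the sources used here.

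**Figure D2:**
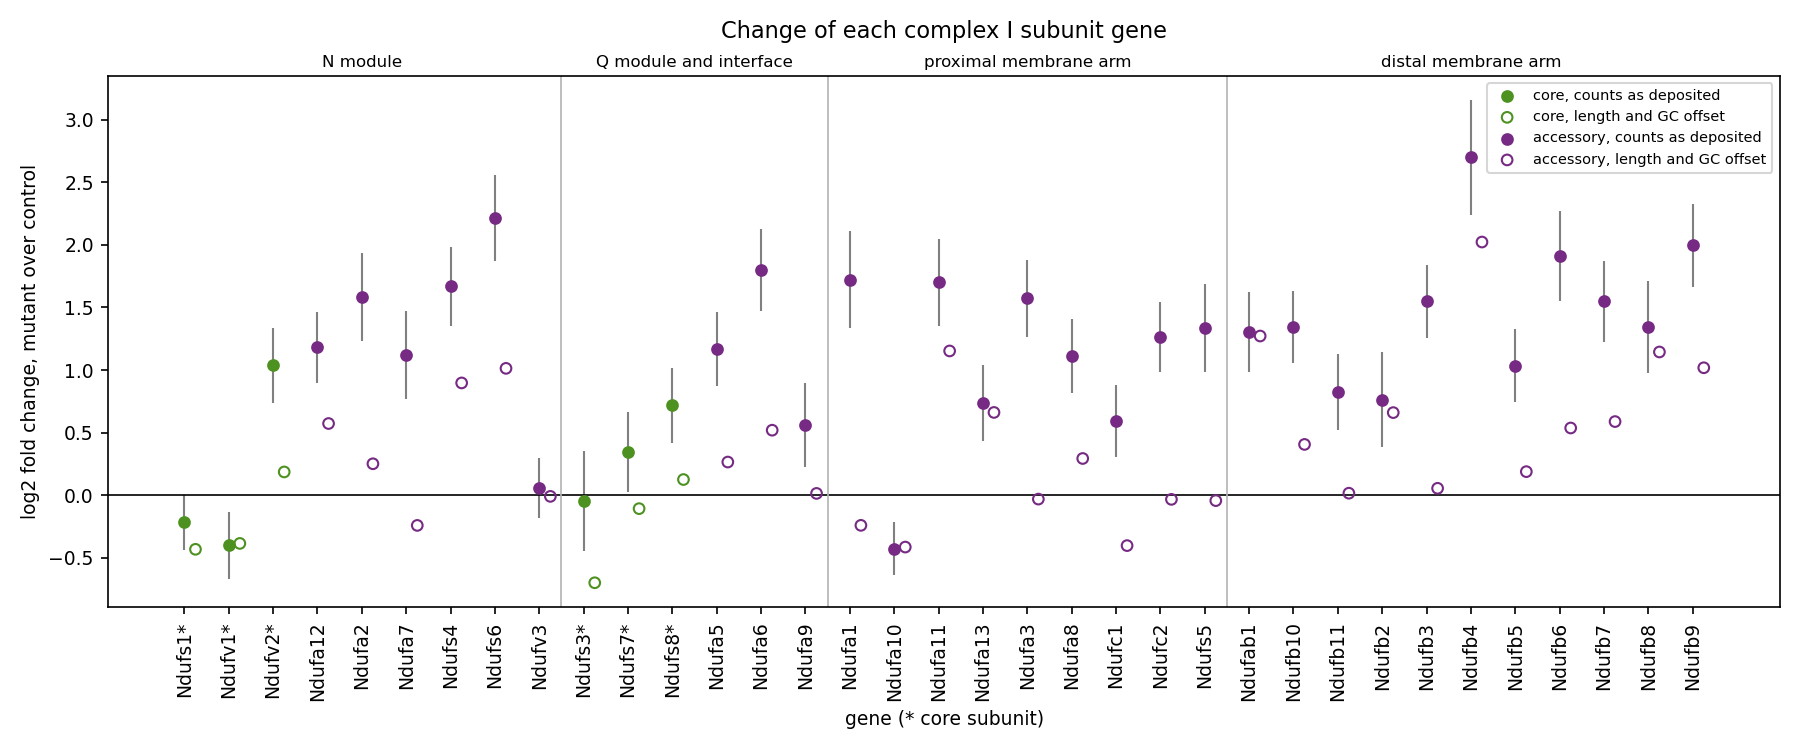
Log2 fold change, mutant over control, of each member with its approximate standard error (filled points) and after an offset for transcript length and GC content (open points), grouped by module, core in green and accessory in purple. Most accessory points lie above the highest core point, at 1.04, and the offset moves the median of all members from 1.18 to 0.19.

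Compared within a sample, core and accessory subunits diverged in the mutants. The mean log2(CPM + 1) of the core minus that of the accessory members was 0.00, 0.35 and 0.07 in control and -0.78, -0.83 and -1.20 in mutant samples. Every mutant sample lay below every control sample, and a factor applied to a whole library nearly cancels in this difference. The group means were 0.14 ± 0.18 (SD, n = 3) in control and -0.94 ± 0.23 (SD, n = 3) in mutant samples. As a share of all counts, accessory members made up 0.330, 0.184 and 0.295% in control and 0.597, 0.521 and 0.582% in mutant samples. The core members made up 0.0650, 0.0445 and 0.0605% in control and 0.0691, 0.0611 and 0.0537% in mutant samples, with overlapping groups.

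Levels compared between genes were put per kilobase of the longest transcript. In control samples the median level was 74.5 CPM per kilobase for core and 88.3 for accessory members. In mutant samples it was 70.0 for core and 219 for accessory members. The highest level per kilobase of the longest transcript was that of Ndufa1, at 257 in control and 848 in mutant samples. Per kilobase of the median transcript length, Ndufb8 was highest in control, at 344, and Ndufa6 in mutant samples, at 951.

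**Figure D3:**
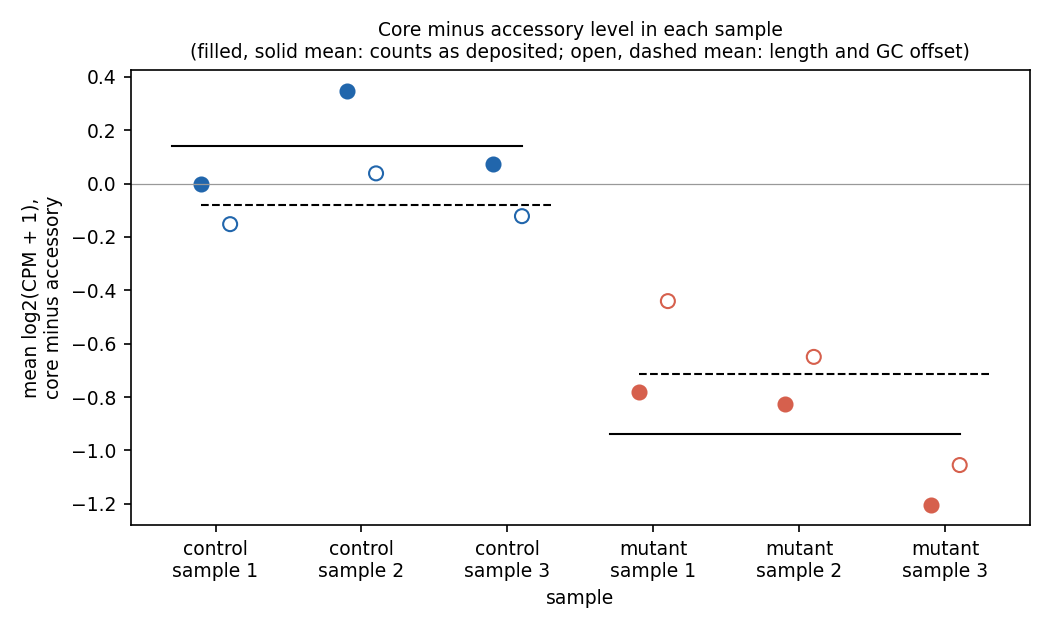
Mean log2(CPM + 1) of the 6 core members minus that of the 29 accessory members in each sample, control in blue and mutant in red, as deposited (filled, solid line for the group mean) and after the length and GC offset (open, dashed line). All mutant points lie below all control points in both forms.

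The changes also moved with transcript length. The longest transcripts of core members run from 983 to 2661 bases (median 1354) and those of accessory members from 419 to 4371 (median 875). Across the 35 members, the log2 fold change and the log10 length gave a Pearson r of -0.51 and a Spearman rho of -0.58, as a description over genes that share the same 6 libraries. Among all protein-coding genes tested, split into 5 bins by length, the bin with the shortest transcripts (204 to 1808 bases) had a median log2 fold change of 0.41, against -0.10, -0.22, -0.27 and -0.25 in the others. The shortest bin held 30 members, 5 of them core, with a median of 1.22. In that bin 6.55% of the genes rose, against 0.362 to 1.12% in the other bins.

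The 18 accessory members shorter than every core transcript had a median log2 fold change of 1.56 and 13 rose. Among all genes 3.72% rose, and in the bin with the shortest transcripts 6.55%. The other 11, whose longest transcript is at least as long as the shortest of the core, had a median of 0.76. Of these 11, 3 rose (Ndufs4, Ndufa12 and Ndufab1), against the same 3.72% of all genes. With an offset for length and GC content, edgeR called 0 members, against 133 of the 15826 genes. At an unadjusted p under 0.05, 11 members were higher and 2 lower, against 1189 and 1253 of all genes. The medians were -0.25 over core and 0.29 over accessory members. The core minus accessory difference in the samples then was -0.15, 0.04 and -0.12 in control and -0.44, -0.65 and -1.05 in mutant samples, still without overlap.

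After the offset the distal membrane arm kept all 11 members above 0, against 7623 of the 15826 genes, with a median of 0.59. Ndufb4 at 2.02 (edgeR adjusted p = 0.0626), Ndufab1 at 1.27, Ndufa11 at 1.15 and Ndufb8 at 1.14 were highest. The offset used the longest transcript of each gene, in that order 971, 3479, 918 and 2142 bases. Their median transcripts have 971, 984, 545 and 549.5 bases, and an offset from median lengths was not tested. The core Ndufs3 was lowest at -0.70. The part of transcript length in the difference between core and accessory members was not tested beyond this offset.

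**Figure D4:**
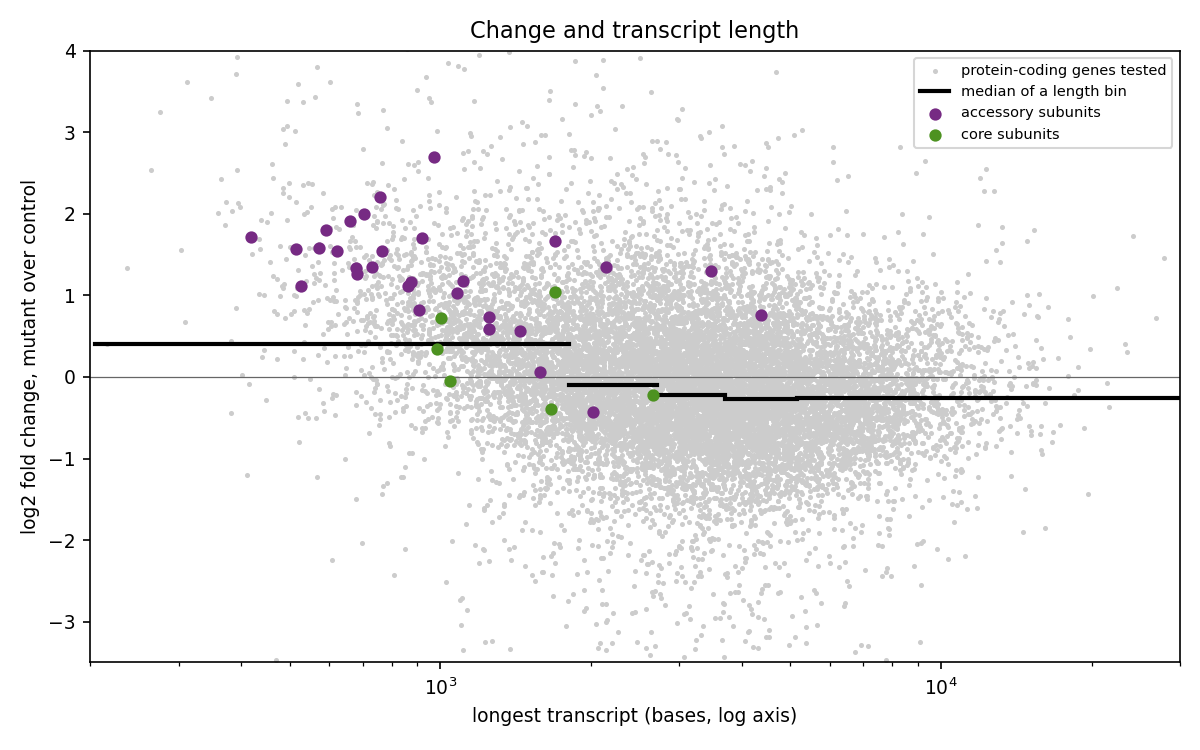
Log2 fold change of protein-coding genes against the length of the longest transcript in bases (log axis), with the median of each of 5 length bins as a black line, accessory members in purple and core members in green. Genes outside the axes (413) are not drawn. Members sit among short transcripts, where the median of all genes is 0.41.

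Other genes of complex I and its surroundings were described from lists. Without the offset, 3.72% of all genes rose and 3.06% fell. With the length and GC offset, edgeR called 133 of the 15826 genes. At an unadjusted p under 0.05, 1189 genes were then higher and 1253 lower. The 7 subunits encoded by mitochondrial DNA all rose, by 2.78 (mt-Nd5) to 4.13 (mt-Nd4l) on the log2 scale, with a median of 3.42. mt-Nd1 rose by 3.37, mt-Nd2 by 3.85, mt-Nd3 by 3.42, mt-Nd4 by 3.07 and mt-Nd6 by 3.60. After the length and GC offset their median was 1.09 and edgeR called 0 of them, with 4 higher at an unadjusted p under 0.05.

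Of 18 assembly factors tested, 2 rose: Ndufaf4 (log2 fold change 2.06) and Ndufaf2 (2.04), and the lowest were Ndufaf3 at -0.86 and Ndufaf1 at -0.70, not called. The median of this list was 0.30. With the length and GC offset it was -0.05, edgeR called 0 of the list with 5 higher and 0 lower at an unadjusted p under 0.05, and Ndufaf4 and Ndufaf2 stood at 1.49 and 0.60. Among genes with Nduf names that are not members, 3 rose: Ndufa4, now counted with complex IV, by 1.95, Ndufb4c by 1.69 and Ndufb1-ps by 1.58. With the offset these stood at 0.12, -0.15 and 0.89 and none was called.

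Among 39 nuclear subunits of complexes II to V, 9 rose and 0 fell, with a median log2 fold change of 1.07. The ATP synthase subunit Atp5l rose by 2.38 and the cytochrome oxidase subunit Cox6c by 2.23, whereas Atp5g2 at -0.59 and the complex II subunit Sdha at -0.37 were lowest and not called. With the length and GC offset the median was 0.10 and edgeR called 0 of the list, with 8 higher and 5 lower at an unadjusted p under 0.05, and Atp5l and Cox6c stood at 0.75 and 0.90. In the outer membrane and import list of 14 genes, the small translocase subunits Tomm5 and Tomm7 rose by 1.97 and 1.72, and Tomm40 and Vdac1 stood at -0.61 and -0.58, not called. With the offset Tomm5 and Tomm7 stood at 0.68 and 0.63, and 0 of the list were called, with 3 higher and 2 lower at an unadjusted p under 0.05.

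The tricarboxylic acid cycle list had a median log2 fold change of 0.09 over 17 genes. Ogdh, a subunit of the oxoglutarate dehydrogenase complex, fell by 1.02 on the log2 scale, Cs was at -0.60, and Sdhd at 1.06 and Dld at 0.83 were highest, all but Ogdh not called. With the offset Ogdh stood at -0.54 and 0 of the list were called, with 1 higher and 3 lower at an unadjusted p under 0.05. Of 13 genes of other routes to ubiquinone, edgeR called 0, and the highest were Coq7 at 1.14 and Dhodh at 1.04 and the lowest Gpd2 at -0.65 and Pdss2 at -0.60.

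Of 13 transcriptional regulators of the respiratory chain, 0 rose. Ppargc1a had a log2 fold change of 0.80, Nrf1 of 0.18, Gabpa of 0.04 and Esrra of 0.44, none called, and the highest were Tfam at 0.88 and Gabpb1 at 0.81. The coactivator Ppargc1b was at 0 counts in all mutant samples, against 2.88, 4.78 and 3.55 CPM in control samples, and was called lower (edgeR adjusted p = 0.0464). With the offset 0 of the regulators were called, with 3 higher and 1 lower at an unadjusted p under 0.05.

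The 5 genes without an Nduf symbol whose log2 CPM followed the mean of the members most closely over the 6 samples were Hint3, Snrpg, Uqcrq, Zfp207 and Phf5a, with Pearson r between 0.998 and 1.00. Uqcrq is a complex III subunit. The likeness is a description over 6 samples.

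**Figure D5:**
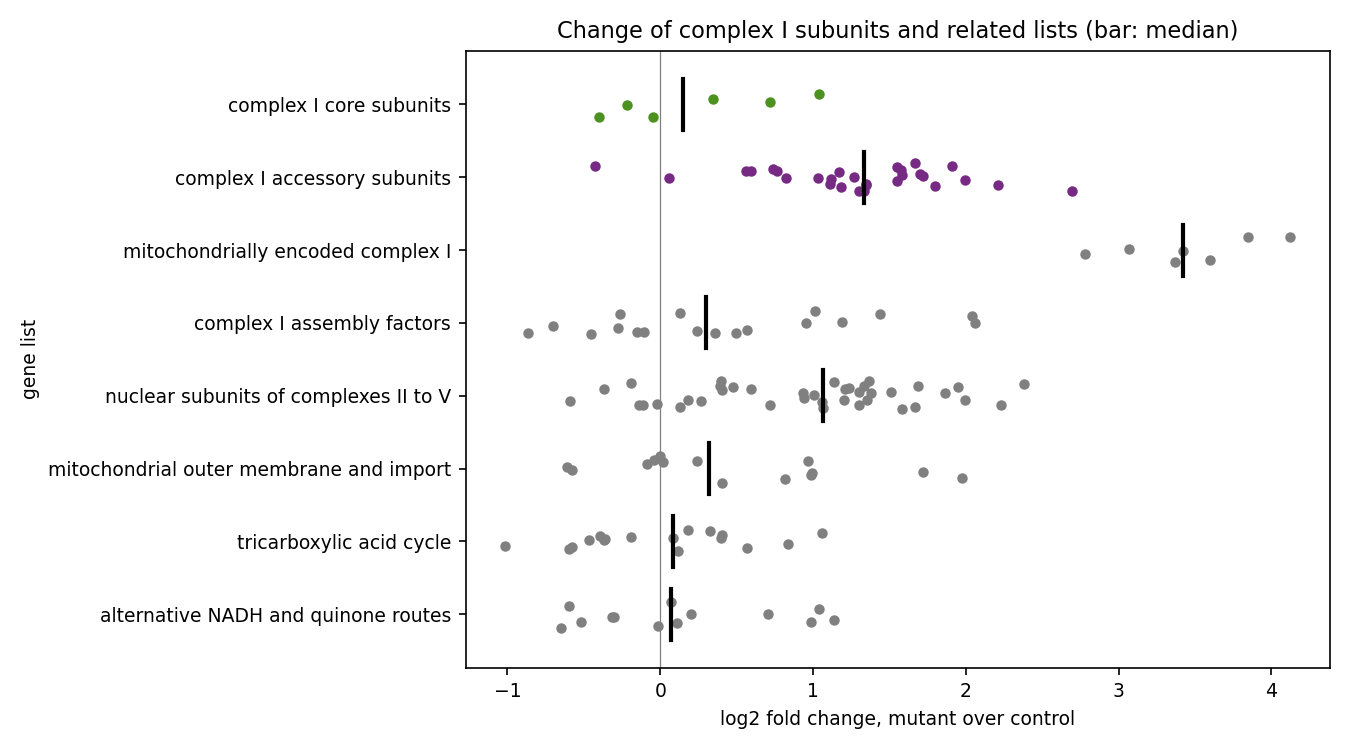
Log2 fold change, mutant over control, of each gene in the core and accessory members and in 6 related lists, with a bar at the median of each list. The medians are 0.15 for core, 1.33 for accessory, 3.42 for mitochondrially encoded and 1.07 for complexes II to V.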

How the data were processed

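Bulk RNA-seq of proximal incisors from 3 control and 3 mutant mice was analysed. The authors deposited estimated counts per gene without normalization, from single reads aligned to mm10. The submitters' processing notes name TopHat2 2.0.8, while the annotation and counting model are not given in the sources used here. A table of the authors' own comparison (group means, fold changes, p-values) was not used. The replicates are separate samples in the labels, and p-values measure the spread between them.

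Counts were rounded and fitted in edgeR 4.0.16 (R 4.3.3) with upper-quartile scaling, edgeR's own filter (at least 10 counts, 15 in all) and no term besides genotype, by the quasi-likelihood test (two-sided). Standard errors are approximate, from the log2 fold change and F. DESeq2 1.42.0 and limma 3.58.1 were alternatives. The length and GC offset was a spline with 4 degrees of freedom fitted where the mean count was 50 or more. It took length and GC content from the longest transcript of each gene. Lengths, GC and positions came from GENCODE M21 on GRCm38 (18637 symbols matched directly, 216 by synonym, 207 not), promoters from RefSeq, and near-identical copies (95% over 200 bases) from blastn 2.17.0. The scripts were tested on simulated data.

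The members and lists were chosen with earlier results of these data known. Every member is named, with values in full for core members and, in each of the 4 modules, for the accessory members with the smallest and largest p. Up to 2 highest and 2 lowest genes are named per related list. Of the genes this rule selects, 1 is not reported here. Ndufb4 and Ndufs4 were given in full after their values were seen.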

Additional observations from a re-analysis of the deposited data

How the results depend on the processing

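The count of members that rose depended on the processing more than the direction did. It was 16 as reported, 14 with TMM, 13 with total counts, 23 with DESeq2 and 22 with limma-voom, but 4 without the filter on low counts, 10 with a mean of at least 50 counts, 10 with thinned control counts, 1 with protein-coding genes only and 0 with the length and GC offset, where 11 were higher at an unadjusted p under 0.05. Adjusted p was from 0.045 to 0.05 for 7 of the 16. Leaving out single samples gave 0 to 6 calls. Without control replicate 1, 2 and 3 it gave 1, 6 and 0 (0.941, 1.19 and 0.474% of all genes). Without mutant replicate 1, 2 and 3 it gave 3, 1 and 0 (2.73, 0.702 and 0.777% of all genes). In these fits 23 to 28 members were still higher at an unadjusted p under 0.05 and over 1.5-fold. In the fit of all 6 samples 26 members and 10.9% of all genes were. The cause was not tested. No setting called a member lower at an adjusted p under 0.05. At an unadjusted p under 0.05, 1 member was lower with TMM, 2 with total counts and 2 with the length and GC offset. Without control replicate 2 it was 1, and in the other settings 0. As reported, 9.13% of all genes were lower at an unadjusted p under 0.05.

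With the length and GC offset the medians were 0.19 over all members, -0.25 over core and 0.29 over accessory members, and these turned negative: Ndufa1 -0.24, Ndufa3 -0.030, Ndufa7 -0.24, Ndufc1 -0.40, Ndufc2 -0.032, Ndufs5 -0.042, Ndufs7 -0.11 and Ndufv3 -0.0084. Ndufv3 was -0.036 with TMM and -0.21 with total counts, which moved the median of all genes from -0.04 to -0.30. Ndufs3 was 0.080 with copies added. Without single samples, Ndufs3 ran from -0.63 to 0.17, Ndufs7 from -0.047 to 0.51 and Ndufv3 from -0.082 to 0.20. The core minus accessory median was -1.18, and -1.60 within the N module and -0.82 within the Q module. The accessory median was 0.76 over members at least as long as the shortest core transcript. Depth did not limit detection of the members, whose lowest count in a mutant sample was 224, but the shallower mutant libraries limit precision.

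Same-numbered samples had r = 0.0472, 0.00937 and 0.0548 between their deviations from the group means, and differently numbered ones -0.0593 to 0.00808. The paper's methods mention pairs of samples, and these values cannot decide whether same-numbered samples were paired. With the replicate block 20 members rose, against 2.73% of all genes.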
